A study of Mus musculus with 4 samples.

Results

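The genes described here handle calcium and magnesium in the kidney tubule. They were chosen by gene symbol: every probe set of the deposited table whose platform symbol is Casr, Calb1, S100g, Slc8a1, Trpv5, Trpv6, Atp2b1, Atp2b4, Trpm6 or Trpm7. This gave 22 probe sets for 9 of the 10 genes, out of 45037 probe sets and 18193 genes. No probe set carries the symbol Trpv5 in the platform annotation, so Trpv5 was not analysed here. The arrays held RNA cut by laser from frozen sections of fetal kidneys of wild-type CD-1 mice, an outbred stock, of unknown sex, at stage E15.5 (Theiler stage 23). The cortical collecting duct was measured on 1 array, which the labels number 3, and the anlage of loop of Henle (the forerunner of that nephron segment) on 3 arrays, numbered 1 to 3. The titles of the anlage arrays abbreviate them as DT, which the labels do not spell out. Every array is a pool, of some 50 sections cut from 5 kidneys, whose RNA went through 2 rounds of amplification.

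Calcium leaves the tubule fluid both between cells and through them. In the thick ascending limb it passes between cells, and the calcium-sensing receptor tunes that passage. In the distal convoluted and connecting tubule it passes through cells: it enters by the apical channels TRPV5 and TRPV6, is carried across by calbindins, and leaves through the sodium-calcium exchanger and the plasma membrane calcium pumps. Magnesium enters the cells of the distal convoluted tubule through TRPM6, whose relative TRPM7 is made in most tissues. In mature kidney several of these genes therefore mark particular segments, and the comparison asks which of the set already differ between the captured structures at this stage.

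None of the genes passed the test across the whole table. Slc8a1 had a value 4.83-fold higher in the collecting duct array, and its 3 brighter probe sets differed alike. Casr had a lower value there, at a signal too dim to fix the size of the difference. Trpm7 had a higher value by 1 of its 4 probe sets, by 2.25 on the log2 scale, but by 0.88 without anlage array 2 and by 0.72 as the mean of its probe sets. Calb1 and Atp2b1 were brighter in the collecting duct array by amounts that lay within the spread of the anlage arrays or depended on 1 of them. S100g and Trpv6 were dim on all or nearly all arrays, and Trpm6 differed by less than its error.

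All values below are log2(normalized signal + 109.6) unless named otherwise, and a difference is the collecting duct value minus the mean of the anlage arrays on that scale. The offset makes the difference of a dim gene smaller than the ratio of its signals. A gene is called dim, and was not tested, where its mean over the 4 arrays is under 8.42. Where a gene has several probe sets, the brightest stands for it in the test over 12642 genes, and all tested probe sets were also fitted in a second test over 22499. In that gene test limma called 0 genes higher and 0 lower (0% of genes, adjusted p under 0.05). At an unadjusted p under 0.05 it found 431 genes (3.41%), of which 149 were higher (1.18%) and 282 lower (2.23%). Fewer cells of a type and less RNA per cell cannot be told apart in such pools.

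The captured structures were described with marker lists. These were drawn up with earlier results of these arrays known, so they are no independent check. All 17 tested markers of the collecting duct were brighter in its array, and all 13 tested loop markers were dimmer. Of the 17, 15 lay above all anlage arrays, and all 13 loop markers below them, where 17.3% and 24.3% of tested genes did. Among the loop markers Kcnj1, Umod, Cldn10, Cldn16 and Bsnd, at 7.31 to 8.34 in the collecting duct array, passed the dim limit through their anlage values alone. Scnn1g, with an anlage mean of 8.07, passed it only with its collecting duct value. These counts are therefore descriptions. The summed signal of the collecting duct list came to 152508 for that array, against 19863 to 33787 for the anlage. That of the loop list was 18866, against 212993, 60139 and 157199 for anlage arrays 1 to 3, of which array 2 had the least. Slc12a3, the cotransporter that defines the distal convoluted tubule, was dim, at 8.16 in the collecting duct array against 7.27, 7.37 and 7.03. Outside the set, 3 of 6 tested markers of distal convoluted and connecting tubule were brighter and 3 dimmer in the collecting duct array. The summed signal of that list, over 9 genes with Trpm6 and the dim Slc12a3 included, was 11830 against 17648, 15169 and 15790. Each summed signal given here covers every listed gene with a probe set, tested or not. For Gapdh, the ratio of 3' to 5' probe signal, a sign of how short the copied transcripts were, came to 12.05 for the collecting duct and to 10.3, 54.1 and 26.0 for the anlage. All 10 tested endothelial markers were dimmer in the collecting duct array, with a summed signal of 6561 against 11212 to 23689. So were all 9 tested striated muscle markers, with 1913 against 44348, 3006 and 25592, and all 10 of the proximal tubule, with 4709 against 8045, 11233 and 9522. Of 13 stroma and smooth muscle markers 10 were dimmer, with 165434 against 162406, 147112 and 430937. Below all anlage arrays lay 7 endothelial, 7 striated muscle, 6 proximal tubule and 3 stroma markers, where 24.3% of tested genes did. Any marker under the dim limit in the collecting duct array passed it through its anlage values alone, so these counts too are descriptions. The part of RNA quality and of neighbouring cells in the differences below was not tested.

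**Figure D1:**
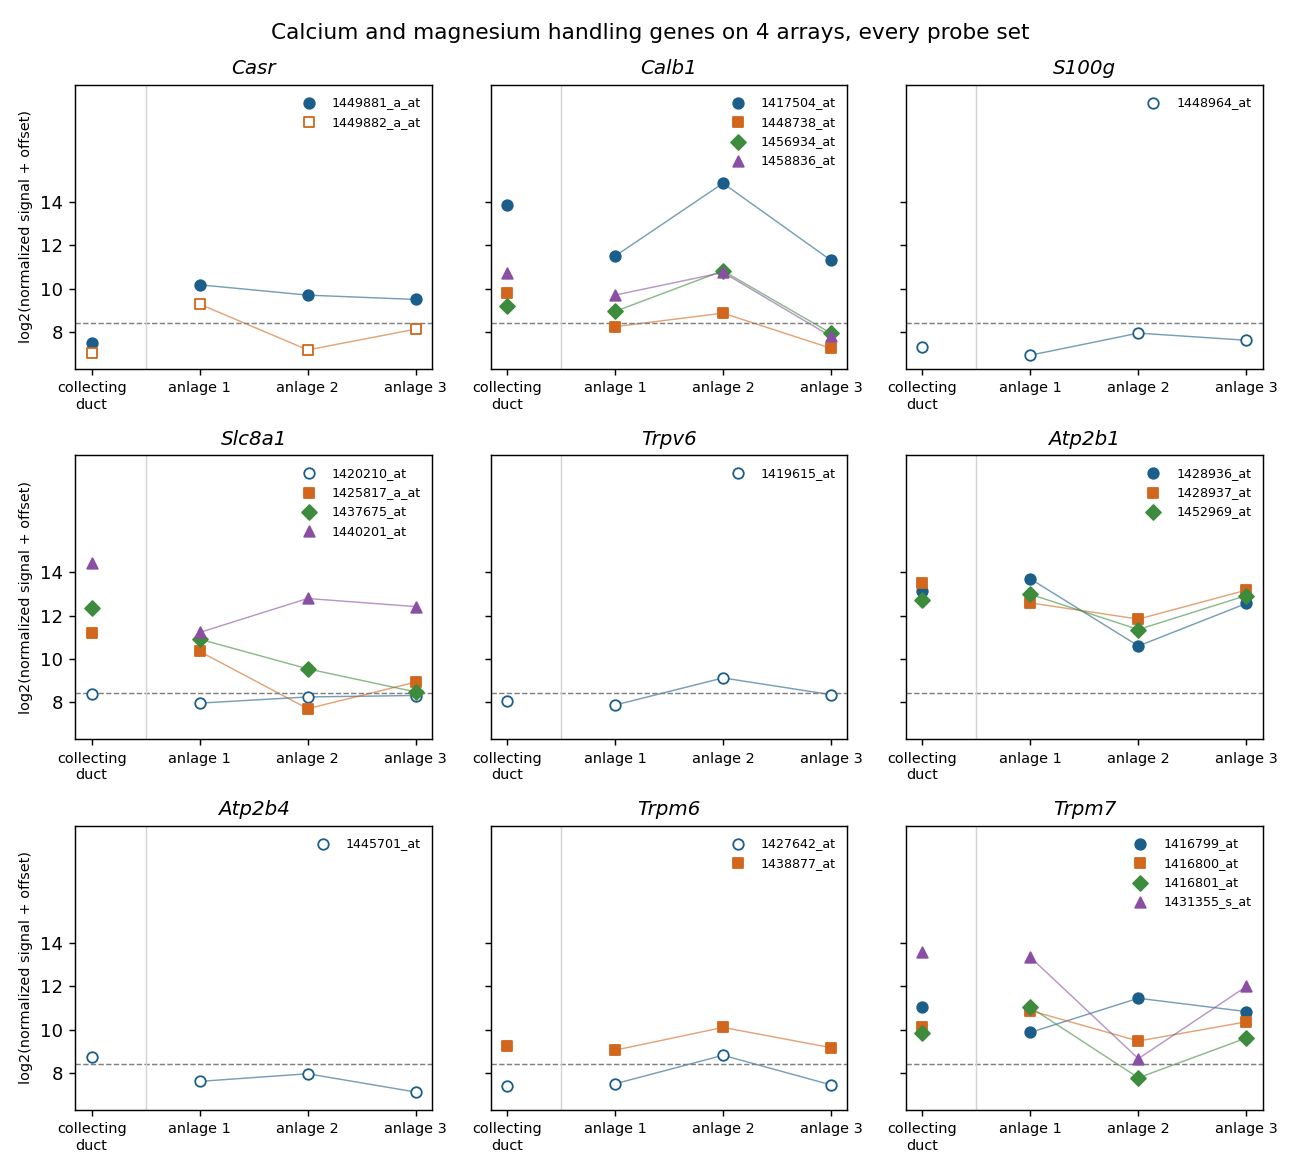
Log2 values (vertical axis, log2 of normalized signal plus the offset) of each of the 22 probe sets in the collecting duct array and anlage arrays 1, 2 and 3 (horizontal axis), 1 panel per gene. Points are single arrays, lines join the anlage arrays, open symbols are probe sets too dim to be tested and the dashed line is the dim limit of 8.42. Casr lies below all anlage arrays, Slc8a1 above them, and the probe sets of Trpm7 part in anlage array 2.

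Casr encodes the calcium-sensing receptor, a G protein-coupled receptor that in the thick ascending limb faces the blood side. Its brighter probe set, 1449881_a_at, stood at 7.51 in the collecting duct array, against 10.18, 9.70 and 9.50 for anlage arrays 1 to 3. In normalized signal it came to 72.2 for the collecting duct, against 1047, 722 and 614. The collecting duct array lay under the dim limit and below all 3 anlage arrays, which were close to each other (9.79 ± 0.35, SD, n = 3). The difference was −2.29 ± 0.54 (SE), with a 95% interval from −3.61 to −0.96. The adjusted p was 0.9999. Casr passed the dim limit through its anlage values alone and was not tested with the limit at the 60th percentile, so its interval is a description. The second probe set, 1449882_a_at, was dim: it stood at 7.01 in the collecting duct array, against 9.28, 7.17 and 8.13. It too was lowest in the collecting duct array, with anlage array 2 close by. Since the collecting duct signal lay under the offset of 109.6, the size of the Casr difference depended on it, and was −3.01 with an offset at the 10th percentile and −1.38 with one at the 50th.

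Slc8a1 encodes the sodium-calcium exchanger NCX1, which carries calcium out of the cell in exchange for sodium. Its brightest probe set, 1440201_at, stood at 14.42 in the collecting duct array, against 11.23, 12.80 and 12.42 for the anlage. All anlage arrays were lower than the collecting duct array. The difference was 2.27 ± 0.71 (SE), with a 95% interval from 0.54 to 4.0, an unadjusted p of 0.0184 and an adjusted p of 0.9999. Probe set 1437675_at stood at 12.35 in the collecting duct array, against 10.92, 9.55 and 8.48. Probe set 1425817_a_at stood at 11.20 in the collecting duct array, against 10.35, 7.71 and 8.94. Both of these also lay above all anlage arrays, with differences of 2.70 ± 1.00 and 2.20 ± 1.05 (SE) in the probe set test. The fourth, 1420210_at, was dim, at 8.40 against 7.97, 8.25 and 8.32. The probe sets ranked the anlage arrays differently, since the lowest was array 1 for 1440201_at, array 2 for 1425817_a_at and array 3 for 1437675_at. The size of the difference varied by anlage array left out: that of 1425817_a_at was 1.44 without array 2. Slc8a1 is also made in heart and muscle. The summed striated muscle signal was lowest in the collecting duct array, and that of stroma and smooth muscle was 165434 there, against 162406, 147112 and 430937. The part of such cells in the Slc8a1 difference was not tested.

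Casr and Slc8a1 differed in opposite directions, so their upstream sequences are shown, as the 250 bases before the start site in RefSeq, build GRCm38.p6, 5′ to 3′. The Casr window is chr16:36562135-36562384 on the minus strand and the Slc8a1 window chr17:81738388-81738637 on the minus strand. Capitals mark matches to AGATAA or TGATAA on either strand.
Casr: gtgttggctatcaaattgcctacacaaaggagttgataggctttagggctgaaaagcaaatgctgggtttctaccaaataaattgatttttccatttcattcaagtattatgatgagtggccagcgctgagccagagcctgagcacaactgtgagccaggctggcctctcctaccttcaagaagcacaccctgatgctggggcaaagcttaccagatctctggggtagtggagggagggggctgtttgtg
Slc8a1: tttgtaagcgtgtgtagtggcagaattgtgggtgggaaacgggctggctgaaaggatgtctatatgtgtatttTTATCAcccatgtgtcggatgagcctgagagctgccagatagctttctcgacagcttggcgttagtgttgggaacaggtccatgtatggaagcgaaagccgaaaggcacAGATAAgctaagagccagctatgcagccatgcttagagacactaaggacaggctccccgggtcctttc

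RefSeq promoter windows were given for 9 of the 10 genes, all but Calb1. Both strands of 32851 windows of this length were searched for GATA as AGATAA or TGATAA, AP-2 as GCCNNNGGC, HNF1 as GTTAAT and TATA as TATAAA. The Slc8a1 window held AGATAA, 68 bases before the start site, and TGATAA on the other strand, 177 bases before it, and these matches do not overlap. Among the other genes' windows, AGATAA also stood in those of Atp2b4 and Trpv5, the TATA motif in that of Trpv5 and the AP-2 motif in that of Trpm6. Of all windows 9.99% hold AGATAA and 7.94% TGATAA. The Casr window held no match to any of the forms searched, and 13.7% of all windows hold the AP-2, 6.43% the HNF1 and 12.4% the TATA motif. Other GATA forms were not searched, among them TGATAG, which the Casr window holds, and AGATAG, which the Slc8a1 window holds. Gata3, a GATA factor of the ureteric lineage, stood at 15.17 in the collecting duct array, against 11.95, 12.50 and 10.46 for the anlage. A match describes the letters only. Binding by GATA3, and use of these start sites in the captured structures, were not tested.

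Trpv6 encodes an apical calcium entry channel of distal tubule, gut and placenta. Its 1 probe set was dim, at 8.08 in the collecting duct array, against 7.88, 9.13 and 8.36 for the anlage. The collecting duct value lay inside the anlage range, and 1 of the 4 values exceeded the dim limit, that of anlage array 2. Its difference of −0.38 was not tested, and it was −0.043 without array 2 and −0.68 without array 1.

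Calb1 encodes calbindin-D28k, the calcium buffer of distal tubule cells, which the embryonic ureteric epithelium also makes. Its brightest probe set, 1417504_at, stood at 13.87 in the collecting duct array, against 11.50, 14.86 and 11.30 for anlage arrays 1 to 3. Array 2 was the highest of all 4, so the groups overlapped. The difference was 1.32 ± 1.40 (SE), with a 95% interval from −2.11 to 4.75 and an adjusted p of 0.9999. Without array 2 it was 2.38, without array 1 it was 0.85 and without array 3 it was 0.68, and none of these passed. Array 2 also had the highest value among anlage arrays in the other 3 Calb1 probe sets, while array 3 had the lowest in all 4. Those other probe sets differed by 1.67 ± 0.76 (1448738_at), 1.30 ± 1.16 (1458836_at) and −0.03 ± 1.13 (1456934_at, SE), and that of 1458836_at was 0.49 without array 3. Only 1448738_at was higher in the collecting duct array than in any anlage array, at 9.79 against 8.24, 8.87 and 7.24. The mean of its anlage values, 8.12, lay under the dim limit. Since 1448738_at passed that limit only with its collecting duct value, its difference and error are a description. The summed collecting duct markers were highest within the anlage in array 2, at 33787 against 19863 in array 1 and 24059 in array 3. Their lowest anlage array was thus array 1, where that of Calb1 was array 3. Array 2 also had the highest Gapdh 3' to 5' ratio, of 54.1. A link of either to the Calb1 values was not tested.

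S100g encodes calbindin-D9k, a small calcium buffer of gut and distal tubule. Its probe set was dim on all arrays, at 7.31 in the collecting duct array, against 6.93, 7.95 and 7.62. The untested difference of −0.19 changed sign to 0.04 without anlage array 2. At this signal no difference was detectable.

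Atp2b1 encodes PMCA1, a plasma membrane calcium pump found in most cells. Its brightest probe set, 1428937_at, stood at 13.49 in the collecting duct array, against 12.60, 11.85 and 13.19. The collecting duct value was the highest, with anlage array 3 close by. The difference was 0.95 ± 0.64 (SE), with a 95% interval from −0.60 to 2.50 and an adjusted p of 0.9999. Probe set 1428936_at stood at 13.12 in the collecting duct array, against 13.70, 10.61 and 12.57, and 1452969_at at 12.72 against 12.99, 11.36 and 12.94. In both the collecting duct value fell inside the anlage range, and anlage array 2 was the lowest array for all 3 probe sets. Without array 2, where 1428936_at became the brightest, the Atp2b1 difference was −0.01.

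Atp2b4 encodes PMCA4, a second calcium pump of the plasma membrane. Its 1 probe set was dim, at 8.75 in the collecting duct array, against 7.61, 7.96 and 7.12. The collecting duct array was the only one above the dim limit and lay above all anlage arrays. The untested difference was 1.19, and it ranged from 0.61 to 1.77 between offsets at the 50th and the 10th percentile.

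Trpm6 encodes the magnesium channel-kinase of the distal convoluted tubule. Its brighter probe set, 1438877_at, stood at 9.27 in the collecting duct array, against 9.05, 10.10 and 9.17. The collecting duct value fell inside the anlage range, where array 2 stood apart as the highest. The difference was −0.17 ± 0.62 (SE), with a 95% interval from −1.70 to 1.35, and it was 0.15 without array 2. The other probe set, 1427642_at, was dim, at 7.39 against 7.50, 8.81 and 7.45, with array 2 again the highest.

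Trpm7 encodes a related channel-kinase that takes up magnesium and other divalent cations in most cells. Its brightest probe set, 1431355_s_at, stood at 13.58 in the collecting duct array, against 13.34, 8.66 and 11.99 for anlage arrays 1 to 3. The collecting duct value was the highest, with array 1 close by, and array 2 lay far below the others. The difference was 2.25 ± 1.67 (SE), with a 95% interval from −1.84 to 6.34 and an adjusted p of 0.9999. It was 0.88 without array 2, 3.43 without array 1, and 0.72 as the mean of the 4 probe sets. The other probe sets gave small differences. Probe set 1416799_at stood at 11.06 in the collecting duct array, against 9.87, 11.45 and 10.83, with a difference of 0.34 ± 0.77 (SE). Probe set 1416800_at stood at 10.13, against 10.88, 9.47 and 10.36, with a difference of −0.10 ± 0.74. Probe set 1416801_at stood at 9.86, against 11.03, 7.78 and 9.61, with a difference of 0.38 ± 1.24. These 3 were designed from the same sequence record, yet anlage array 2 was the highest anlage array for the first and the lowest for the others. Array 2 also had the highest Gapdh 3' to 5' ratio, and where each probe set lies on the transcript is not given in the sources used here. The suffix _s_at marks probes that can match more than 1 transcript, so the signal of 1431355_s_at may not be Trpm7 alone.

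**Figure D2:**
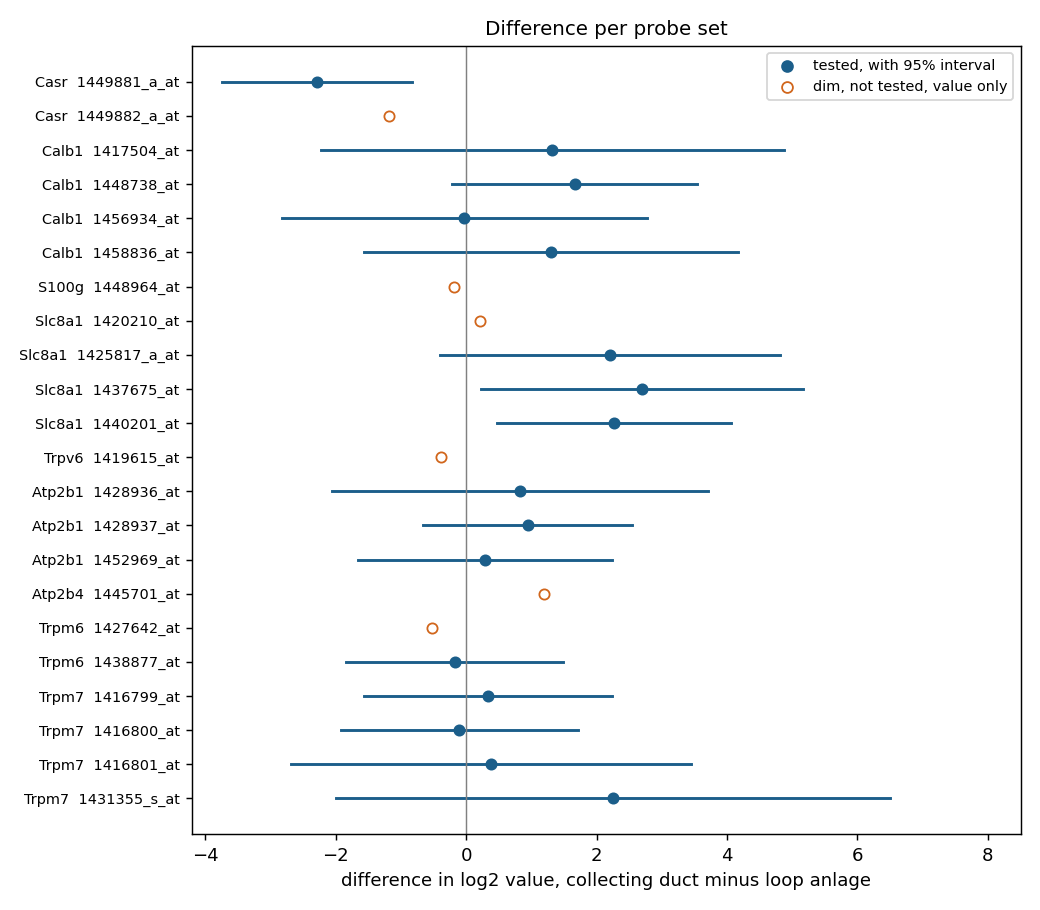
Difference in log2 value, collecting duct minus loop anlage (horizontal axis), for each of the 22 probe sets. Filled points are the 16 tested probe sets with their 95% interval from the probe set test, and open points the 6 dim ones. The intervals of Casr 1449881_a_at and of Slc8a1 1437675_at and 1440201_at leave out 0, but none of these passed over all probe sets. Casr 1449881_a_at passed the dim limit through its anlage values alone, so its interval is a description.

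Of all 22 probe sets, 8 were higher in the collecting duct array than in any anlage array, 3 were lower than in any, and 11 fell inside the anlage range. Over all 34945 probe sets with 1 gene symbol, 18.7% lay above and 23.5% below. By gene, 4 of 9 lay above (Slc8a1, Atp2b1, Atp2b4 and Trpm7) and 1 below (Casr), where 18.2% of all 18193 genes lay above and 25.2% below. Probe sets of a gene share their target, so these counts are not independent. The dim limit was passed by 6 of the 9 genes, by Casr through its anlage values alone. The other 3 were S100g, Trpv6 and Atp2b4. In the test over genes 0 of the 6 passed at an adjusted p under 0.05 (0% over all genes), and 2, Casr and Slc8a1, had an unadjusted p under 0.05 (3.41% over all genes). In the test over probe sets 0 of 16 passed (0% over all probe sets), and 3 had an unadjusted p under 0.05 (2.41%).

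The anlage arrays spread widely for these genes. Between the highest and the lowest anlage array the median range over the 16 tested probe sets was 2.03, against 0.98 over all 22499. Anlage array 2 was the lowest anlage array for 7 of the 16 (43.8%, against 31.2% of all tested probe sets) and the highest for 7 (43.8%, against 42.5%). Array 3 was the highest for 1 of the 16 (Atp2b1 1428937_at), against 23.9% of all. In array 2 the Calb1 and Trpm6 probe sets were the highest of the anlage arrays and all Atp2b1 probe sets the lowest, so that array did not shift these genes in 1 direction.

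**Figure D3:**
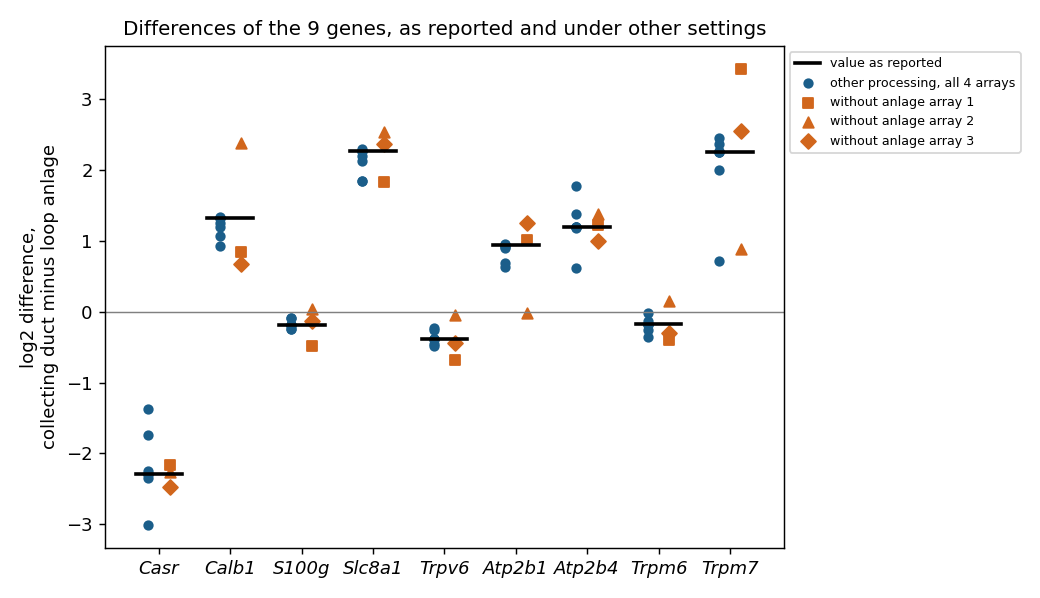
Difference in log2 value, collecting duct minus loop anlage (vertical axis), for the 9 genes (horizontal axis). Black bars are the reported values, blue points other processing of all 4 arrays and orange symbols the values without anlage array 1, 2 or 3. Casr stays between −3.01 and −1.38 and Slc8a1 between 1.83 and 2.54. Atp2b1, Trpm6 and S100g change sign without array 2, where another Atp2b1 probe set is the brightest.

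The tested genes whose profile over the 4 arrays lay nearest were found by the Euclidean distance between log2 values centred on each gene's mean, as a description over 4 arrays. For Casr they were Heatr6 (distance 0.22), Gm5124 (0.33) and Mospd1 (0.35), where the median distance over 12641 genes was 2.19. For Slc8a1 they were Angpt1 (0.23), Cyp1b1 (0.27) and St6galnac2 (0.40), against a median of 2.37. For Trpm7 they were Sema3d (0.37), Gulp1 (0.48) and Sbno1 (0.57), all low in anlage array 2, against a median of 4.21. For Calb1 they were Cyp4x1 (0.65), Kif5c (0.78) and C130071C03Rik (0.85), all highest in array 2, against a median of 3.03.

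Genes that set the paracellular route for calcium and magnesium and the voltage that drives it had mostly lower values in the collecting duct array. Of 10 tested, 7 had a lower value, all 7 below all anlage arrays, and 1 of the 3 others lay above them, where 24.3% and 17.3% of tested genes did. None passed over all genes, while 6 were lower and 1 higher at an unadjusted p under 0.05. Of the 6 lower ones, Kcnj1, Umod, Cldn10, Cldn16 and Bsnd lay under the dim limit in the collecting duct array, at 7.31 to 8.34. They passed that limit through their anlage values alone, so their p-values are a description, with or without anlage array 2. The median difference was −2.47, against −0.06 over all genes. Kcnj1, the potassium channel ROMK, differed by −5.52 ± 1.05 (SE), Umod, which encodes uromodulin, by −5.20 ± 1.18 and Slc12a1, the cotransporter NKCC2, by −3.85 ± 0.74. The 1 gene higher at an unadjusted p under 0.05 was the tight junction gene Cldn3, by 2.51, which was named after its value was seen. Of the 10, 6 also stand in the loop marker list, and the lists were drawn up with earlier results of these arrays known. Anlage array 2 had the lowest anlage value of Kcnj1, Umod and Slc12a1, so leaving it out made each difference larger. Without that array they differed by −6.02, −5.88 and −4.22.

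Genes of magnesium transport and inherited magnesium loss had values in both directions. Of 15 tested, 10 had a lower and 5 a higher value, 0 passed, and the median difference was −0.17. At an unadjusted p under 0.05, 1 was higher and 2 lower. Fxyd2, a regulator of the sodium pump, stood at 9.12 in the collecting duct array, against 13.08, 10.91 and 12.38, and differed by −3.00 ± 0.89 (SE). Slc41a1, a magnesium transporter, stood at 9.21 in the collecting duct array, against 10.40, 11.21 and 10.75, and differed by −1.57 ± 0.57. Egf, a growth factor that stimulates TRPM6, had a higher value, by 1.56 ± 0.60.

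Of 14 tested genes for signalling from the calcium-sensing receptor, 9 had a higher and 5 a lower value, 0 passed, and the median difference was 0.12. Plcb1, a phospholipase C that Gq proteins activate, stood at 9.68 in the collecting duct array, against 12.38, 11.73 and 12.59 for the anlage, and its difference was −2.55 ± 0.58 (SE), at an unadjusted p of 0.00448. The potassium channel Kcnj10 differed by 1.16 ± 0.81 and the phospholipase Plcb3 by −0.73 ± 0.88.

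Among 11 tested genes of hormonal control, 5 had a higher and 6 a lower value, 0 passed, and the median difference was −0.04. Stc1, which encodes the hormone stanniocalcin 1, stood at 12.10 in the collecting duct array, against 10.01, 9.74 and 11.52, and differed by 1.67 ± 0.81 (SE). Vdr, the vitamin D receptor, differed by −0.91 ± 0.52 and Kl, the co-receptor klotho, by 0.84 ± 0.65. Vdr stood at 8.34 in the collecting duct array and passed the dim limit through its anlage values alone, so its error is a description.

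Of 14 tested partners of TRPV5 and TRPV6, 6 had a higher and 8 a lower value, 0 passed, and the median difference was −0.18. The ubiquitin ligase Nedd4l differed by 1.46 ± 1.57 (SE), the phosphatase Mtmr6 by −0.93 ± 0.54 and Rab11a, which recycles channels to the membrane, by 0.91 ± 0.69.

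Of 18 tested genes of intracellular calcium stores, 9 had a higher and 9 a lower value, 0 passed, and the median difference was −0.05. The ryanodine receptor Ryr3 differed by −1.84 ± 0.66 (SE), and the inositol trisphosphate receptors Itpr2 and Itpr3 by 1.48 ± 0.86 and 0.99 ± 0.52. Ryr3 stood at 7.98 in the collecting duct array and passed the dim limit through its anlage values alone, so its error is a description. Among other relatives of the calcium pumps, exchangers, buffers and TRP channels, 3 of 10 tested had a higher and 7 a lower value, 0 passed, and the median difference was −0.37. The channel Trpv4 differed by 1.44 ± 0.81, Trpm5 by −1.29 ± 0.65 and Trpm3 by −1.24 ± 0.85. In the collecting duct array Trpm5 stood at 7.96 and Trpm3 at 7.56, so both passed the dim limit through anlage values alone. The anlage mean of Trpv4, 8.40, lay under that limit. For all of them the error is a description. Of the 10 relatives tested, 6 lay below all anlage arrays and 2 above them, where 24.3% and 17.3% of tested genes did.

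**Figure D4:**
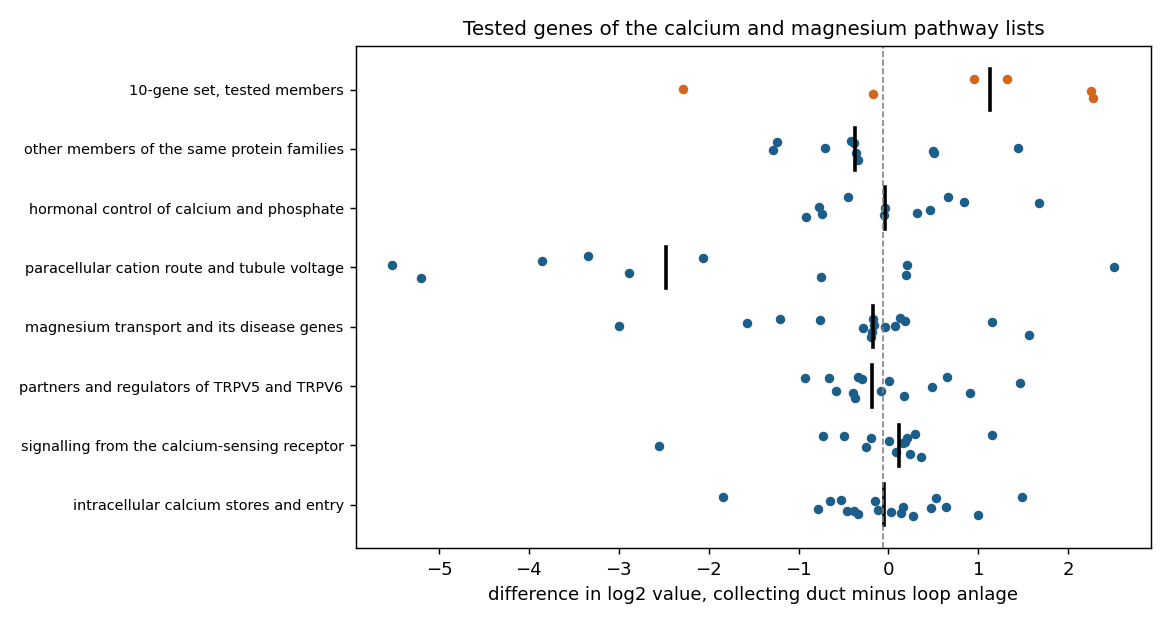
Difference in log2 value, collecting duct minus loop anlage (horizontal axis), for the tested genes of each list (vertical axis, spread at random within a row). Black bars are list medians and the dashed line is the median of all tested genes, −0.06. The paracellular list is the one with most of its genes far to the left, down to −5.52 for Kcnj1.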

How the data were processed

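The deposited table holds 1 intensity per probe set and array, not logged, from GCOS (per the submitters' processing notes, which name no version or summary method). With 2% trimmed at each end its mean was 1500 on all 4 arrays, while medians ran from 206.9 to 526.5. Amplification over 2 rounds copies 3' ends more fully than 5' ends.

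The arrays were quantile normalized, and log2(signal + 109.6) was taken, the offset being the 25th percentile. After removal of 64 control probe sets, 34945 probe sets had 1 gene symbol. The dim limit was the 40th percentile of mean log2 values. The test was limma 3.58.1 (R 4.3.3; lmFit, eBayes with trend, two-sided, Benjamini-Hochberg adjustment over all genes or probe sets tested), checked on simulated data. The residual degrees of freedom were 2 and came from the anlage alone, so the collecting duct array was assumed to vary alike. Exact permutation of 1 array against 3 allows no p under 0.25 and was not used. Nothing says that pools came from separate litters, so p-values measure the spread between these samples only. The number of arrays limits the precision. The 11 alternatives were common-median scaling, the values as deposited, offsets at the 10th and 50th percentile, no dim limit and one at the 60th percentile, the mean of a gene's probe sets, no variance trend, and leaving out each anlage array.

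The genes and lists were chosen with earlier results of these data known. Named were every gene of the set, the 3 tested genes with the largest absolute difference in each list, segment markers, and the 3 nearest profiles of the 4 genes that differed most. Cldn3 was added after its value was seen.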

Additional observations from a re-analysis of the deposited data

How the results depend on the processing

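With 11 other settings, 0 genes of the calcium and magnesium set and 0 of their probe sets passed over the whole table. Of these settings, 3 (no dim limit, the limit at the 60th percentile and no variance trend) cannot move a gene's difference. In the other 8 Casr, Slc8a1, Calb1, Trpv6, Atp2b4 and Trpm7 had no change of sign. Counts over the whole table ranged from 0 to 3 genes higher and 0 to 11 lower when 1 anlage array was left out, the highest without array 2, and pathway genes called from 0 to 3. The set's genes below all anlage arrays numbered 1 to 2 with an array left out and 0 with the dim limit at the 60th percentile, where Casr was no longer tested. With an array left out, differences that changed sign ranged from −0.014 to 1.25 for Atp2b1 and −0.40 to 0.15 for Trpm6 (also 1438877_at). By probe set they ranged from −0.67 to 0.75 for Calb1 1456934_at, −0.014 to 1.61 for Atp2b1 1428936_at, −0.24 to 0.60 for Atp2b1 1452969_at, and for Trpm7 from −0.086 to 0.65 (1416799_at), −0.45 to 0.24 (1416800_at) and −0.43 to 1.22 (1416801_at). With the values as deposited, Calb1 1456934_at differed by 0.030 and Trpm7 1416800_at by 0.17, and with the offset at the 10th percentile Calb1 1456934_at differed by 0.064. For Atp2b1 the brightest probe set without array 2 was 1428936_at, while 1428937_at ranged from 0.58 to 1.25 and kept its sign. The cause of the changes by probe set was not tested. The list median for hormonal control was 0.10 as deposited, 0.32 with the limit at the 60th percentile and −0.032 to 0.33 with an array left out. That of calcium stores was 0.14 as deposited and 0.00060 to 0.14, that of the paracellular route −3.35 to −2.29, and that of the protein families −0.10 with the limit at the 60th percentile. For receptor signalling the median was −0.17 with common-median scaling and −0.025 without array 1, for TRPV5 and TRPV6 partners 0.032 without array 3, and for magnesium transport 0.047 with the mean of probe sets. Scaling to a common median moved the median of all genes to −0.24, against −0.06. No paired analysis was possible because the groups share only 1 replicate number. Depth is not defined for arrays, and 6 of the 22 probe sets were too dim to test.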
